A study of Mus musculus with 7 samples.

Results

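A set of 10 genes that restrain the transcription factor NF-kB was followed in sorted Paneth cells (PCs) of mice injected with tumour necrosis factor (TNF), a pro-inflammatory cytokine, or with phosphate-buffered saline (PBS) as control. The set was defined by a list of gene names, and each of its 10 genes was matched by symbol to 1 Ensembl identifier of the count table. All 10 passed the filter on low counts and were among the 14329 genes tested, out of 55414 identifiers in the table. The list held the classical IkB genes Nfkbia, Nfkbib and Nfkbie, the atypical IkB genes Nfkbiz and Bcl3, the ubiquitin-editing enzymes Tnfaip3 and Cyld, and the A20-binding protein genes Tnip1, Tnip2 and Tnip3.

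The mice were of the C57BL/6J strain and gave 3 PBS and 4 TNF libraries, each from a different animal. The small intestine was taken 15 h after the injection, and PCs were purified with a cell sorter. The sources used here do not give the dose and route of injection, the age and sex of the mice or the sorting markers. Total counts per library ran from 15511455 to 19193721, and every member except Tnip3 after PBS rested on at least 118 counts per group.

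NF-kB dimers are kept in the cytoplasm by IkB proteins. Binding of TNF to its receptor builds ubiquitin chains on the receptor complex, which recruit the IkB kinase (IKK), and IKK marks IkB proteins for degradation so that NF-kB can enter the nucleus. Several genes that NF-kB then switches on encode its own inhibitors, among them new IkB-alpha, which carries NF-kB back out of the nucleus, and A20, which edits the ubiquitin chains upstream of IKK. PCs lie in the crypts of the small intestine, where they secrete antimicrobial peptides and lysozyme.

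The promoters of the members were read first, to see which of them carry the letters that NF-kB binds. RefSeq promoter sequences of GRCm38.p6, from 250 bases before to 50 after an annotated start, were at hand for 9 of the 10 members, Nfkbiz being the exception. They were searched on both strands for the kappaB consensus of 10 bases. At least 1 match lay in the promoters of 7 of these 9 members, against 9.55% of the 27025 gene symbols with a promoter in the same table. With the stricter form, which demands T at bases 7 and 8 of the consensus, 5 of the 9 members had a match, against 3.26% of all symbols. The stretches that hold the matches are shown because they set the members with a match apart from Nfkbib and Tnip2, which had none in these windows. They run 5′ to 3′ on the strand of the gene, with the bases of a match in capitals.
Nfkbia: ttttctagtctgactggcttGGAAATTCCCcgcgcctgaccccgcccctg
Nfkbie: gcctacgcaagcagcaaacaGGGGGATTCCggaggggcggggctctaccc
Bcl3: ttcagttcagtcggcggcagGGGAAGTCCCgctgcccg
Tnfaip3: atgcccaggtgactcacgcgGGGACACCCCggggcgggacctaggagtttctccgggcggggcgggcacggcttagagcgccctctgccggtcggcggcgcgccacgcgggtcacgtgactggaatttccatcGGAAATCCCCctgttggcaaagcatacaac
Cyld: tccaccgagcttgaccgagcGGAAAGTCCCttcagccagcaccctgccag
Tnip1: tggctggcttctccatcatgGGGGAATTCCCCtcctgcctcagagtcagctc
Tnip3: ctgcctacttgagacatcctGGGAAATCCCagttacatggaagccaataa

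In GRCm38.p6 these stretches are chr12:55492647-55492696 on the minus strand for Nfkbia, chr17:45555574-45555623 on the plus strand for Nfkbie, and chr7:19822736-19822773 on the minus strand for Bcl3. Those of Tnfaip3 and Tnip1 are chr10:19015393-19015555 and chr11:54962967-54963018, both on the minus strand. Those of Cyld and Tnip3 are chr8:88696853-88696902 and chr6:65590324-65590373, both on the plus strand. Counting the first transcribed base as 1, the Nfkbia match lay at -29 to -20 and read GGGAATTTCC on the strand opposite to the gene. Tnfaip3 had matches at -125 to -116 and at -12 to -3 of its outer start and none at its inner start. The Tnip1 stretch, a palindrome from -58 to -47, held 4 overlapping matches. Cyld had a match at -155 to -146, which reads GGGACTTTCC on the opposite strand, the same letters as the classical site of the immunoglobulin kappa enhancer. A match describes the letters only, and binding of NF-kB was not measured.

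**Figure D1:**
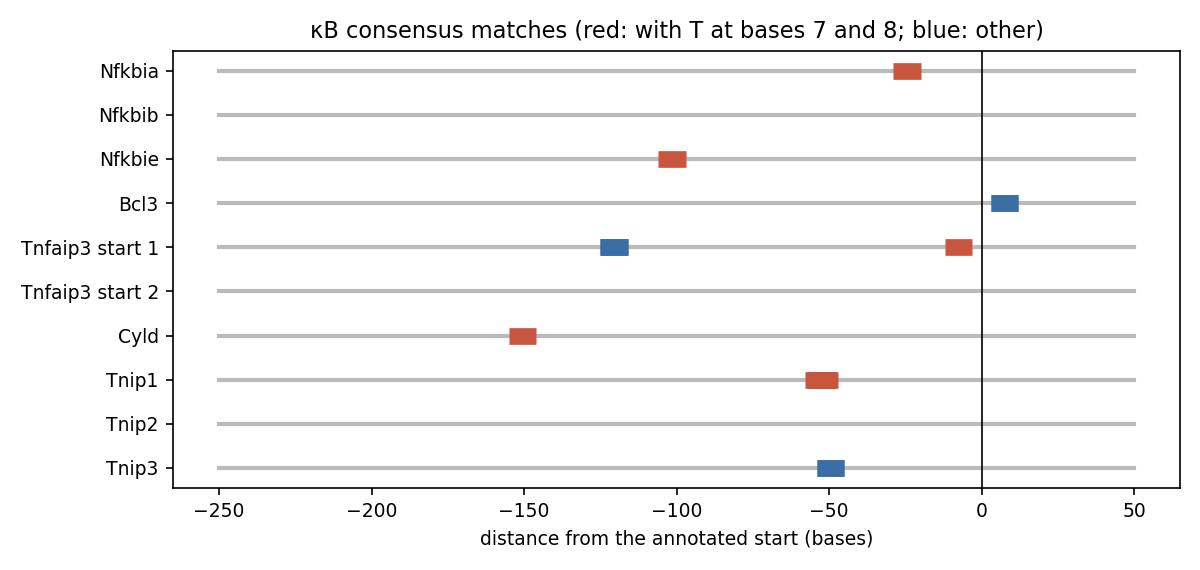
Each grey line is 1 RefSeq promoter of a member, drawn by distance from the annotated start in bases, and the blocks are matches to the kappaB consensus on either strand, in red where bases 7 and 8 are T and in blue otherwise. Blocks appear for 7 of 9 members, with none for Nfkbib and Tnip2.

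To examine how the inhibitors differed between the groups, counts of all 14329 genes were compared between TNF and PBS with the quasi-likelihood test of edgeR, and differentially expressed genes (DEGs) were those whose p, adjusted over all tested genes after Benjamini and Hochberg, was under 0.05. Levels are given in CPM, the counts of a gene per 1000000 counts of its library, with library sizes scaled by the TMM method of edgeR. Of the 10 members, 9 were DEGs, where 59.6% of all tested genes were. All 9 were higher after TNF, which held for 29.5% of all tested genes. At least a 2-fold rise was found for 8 members, against 14.4% of all genes, and at least an 8-fold rise for 3 members (Nfkbia, Tnfaip3 and Tnip3), against 2.64%. For 8 members all TNF libraries lay above all PBS libraries, against 29.9% of all genes. Tnip3 passed the filter on low counts only through the TNF libraries, so its rise was a condition of its being tested. The member that was not a DEG was Cyld, and the groups overlapped for Cyld and Nfkbiz. The median log2 fold change of the 10 members was 2.30, with 0.0017 as the median of all tested genes, and does not depend on how large the rise of Tnip3 is taken to be. In bulk RNA, a change in the make-up of the sorted cells and a change of RNA per cell cannot be told apart.

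**Figure D2:**
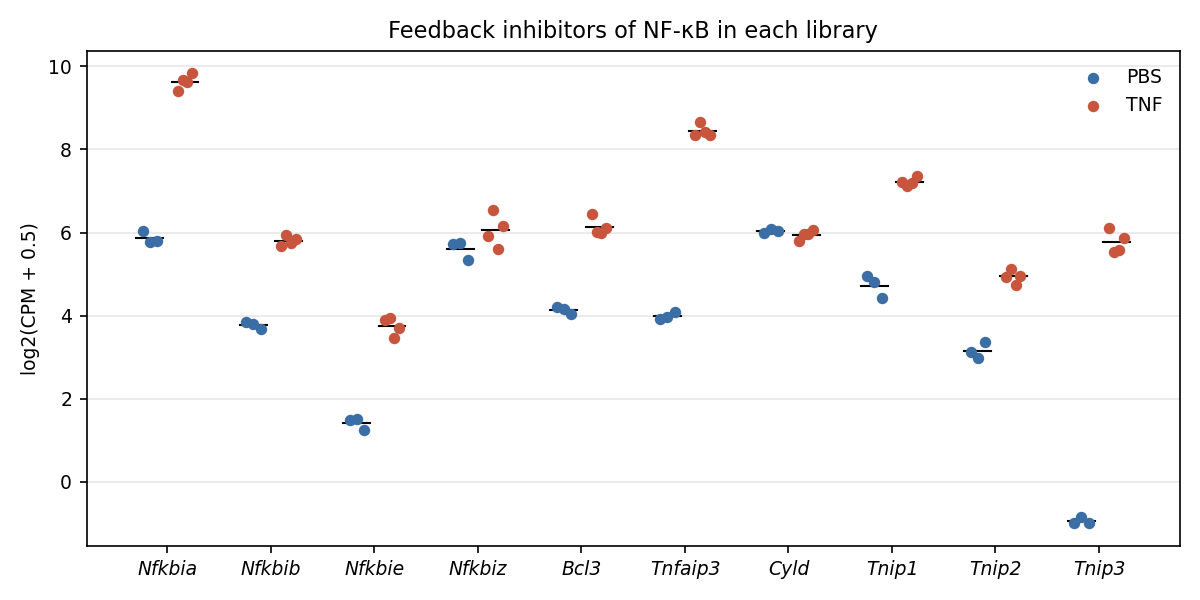
Each point is 1 library, with log2(CPM + 0.5) on the vertical axis, PBS in blue (3 libraries) and TNF in red (4 libraries), and the black lines are group means. The groups are apart for 8 genes and overlap for Nfkbiz and Cyld, and Tnip3 had only 1 count over the PBS libraries.

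Among the classical IkB genes, whose proteins hold NF-kB in the cytoplasm, all 3 rose. Nfkbia (ENSMUSG00000021025, GRCm39 chromosome 12, 55535332 to 55539432) encodes IkB-alpha, the fast-acting inhibitor that is degraded and made anew. Its level was 64.9, 54.5 and 54.9 CPM in the PBS libraries and 683, 810.5, 788.5 and 913 CPM in the TNF libraries. The lowest TNF library thus lay far above the highest PBS library. The log2 fold change was 3.78 ± 0.15 (SE), or 13.8-fold, with an edgeR adjusted p of 2.48e-10. Nfkbib (ENSMUSG00000030595, chromosome 7, 28457486 to 28466937), which encodes IkB-beta, was at 13.8, 13.4 and 12.2 CPM after PBS and at 50.3, 60.7, 53.7 and 57.4 CPM after TNF. Its rise on the log2 scale was 2.08 ± 0.12 (edgeR adjusted p = 8.4e-09), although its promoter window held no kappaB match. Exons of Nfkbib share 42 bases with Sirt2 on the opposite strand, for which 1596 counts were summed after PBS and 1451 after TNF. Nfkbie (ENSMUSG00000023947, chromosome 17, 45866585 to 45874661), which encodes IkB-epsilon, was the least abundant of them, with 2.28, 2.34 and 1.85 CPM after PBS and 14.4, 15.0, 10.5 and 12.5 CPM after TNF. Its log2 fold change was 2.60 ± 0.22 (edgeR adjusted p = 3.39e-07). The spread between TNF libraries was 15.5% of the mean for Nfkbie, 11.8% for Nfkbia and 8.12% for Nfkbib (coefficient of variation, n = 4).

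The 3 classical IkB genes did not rise in proportion. Counts were divided by the length of the union of exons, and the share of Nfkbia among the transcripts of the 3 genes was computed within each library, which makes it free of library scaling. Nfkbia held 84.0%, 81.9% and 83.5% after PBS and 93.4%, 93.5%, 94.2% and 94.5% after TNF. The shares of the groups did not overlap and differed by 10.8 percentage points (exact permutation p = 0.0286, two-sided, adjusted over 4 shares 0.0286). This p is the smallest that 35 ways to split 7 libraries can give. The share of Nfkbib fell from a mean of 15.5% to 5.38%, and that of Nfkbie from 1.43% to 0.721%, so that both were a smaller part of the pool although the level of each had risen.

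The atypical IkB proteins act in the nucleus, where they bind NF-kB subunits on DNA and can raise or lower transcription. Bcl3 (ENSMUSG00000053175, chromosome 7, 19541553 to 19557570), which encodes a partner of p50 and p52 dimers, was at 17.9, 17.3 and 16 CPM after PBS and at 86.0, 64.0, 63.0 and 68.2 CPM after TNF. Its log2 fold change was 2.04 ± 0.13 (SE), with an edgeR adjusted p of 2.67e-08. Nfkbiz (ENSMUSG00000035356, chromosome 16, 55631738 to 55659262), which encodes IkB-zeta, a co-activator of secondary response genes, behaved differently. Its PBS libraries had 52.2, 53.5 and 40.2 CPM and its TNF libraries 60.4, 92.0, 48.4 and 70.8 CPM. TNF replicate 3 lay below 2 of the PBS libraries, and the coefficient of variation of 27.2% after TNF was the highest of the 10 members in that group. The log2 fold change was 0.48 ± 0.19 (edgeR adjusted p = 0.0474), and the 95% interval of the fold ran from 1.04 to 1.87.

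The call for Nfkbiz held in 6 of 14 alternatives, with edgeR or DESeq2 adjusted p from 0.000519 (without a filter on low counts) to 0.163 over all 14. It was lost with DESeq2 size factors (0.0511), with scaling by total counts (log2 fold change 0.32, adjusted p = 0.154), and when some single libraries were left out. Without 1 PBS library it was 0.54 (adjusted p = 0.0712, replicate 1), 0.56 (0.059, replicate 2) or 0.36 (0.163, replicate 3). Without 1 TNF library it was 0.53 (0.0544, replicate 1), 0.30 (0.125, replicate 2) or 0.45 (0.0918, replicate 4), whereas without TNF replicate 3 the call held (0.61, 0.00787). Its direction was higher in all 14. Relative to Bcl3, by contrast, the share of Nfkbiz fell. Nfkbiz held 73.1%, 74.2% and 70.1% of the length-scaled transcripts of the pair after PBS and 39.6%, 57.3%, 41.8% and 49.2% after TNF. By this length it stayed the larger part of the pair in TNF replicate 2, whereas by canonical transcript length it held 41.8% there. The groups did not overlap, and the share fell by 25.5 percentage points (exact permutation p = 0.0286, adjusted over 4 shares 0.0286).

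**Figure D3:**
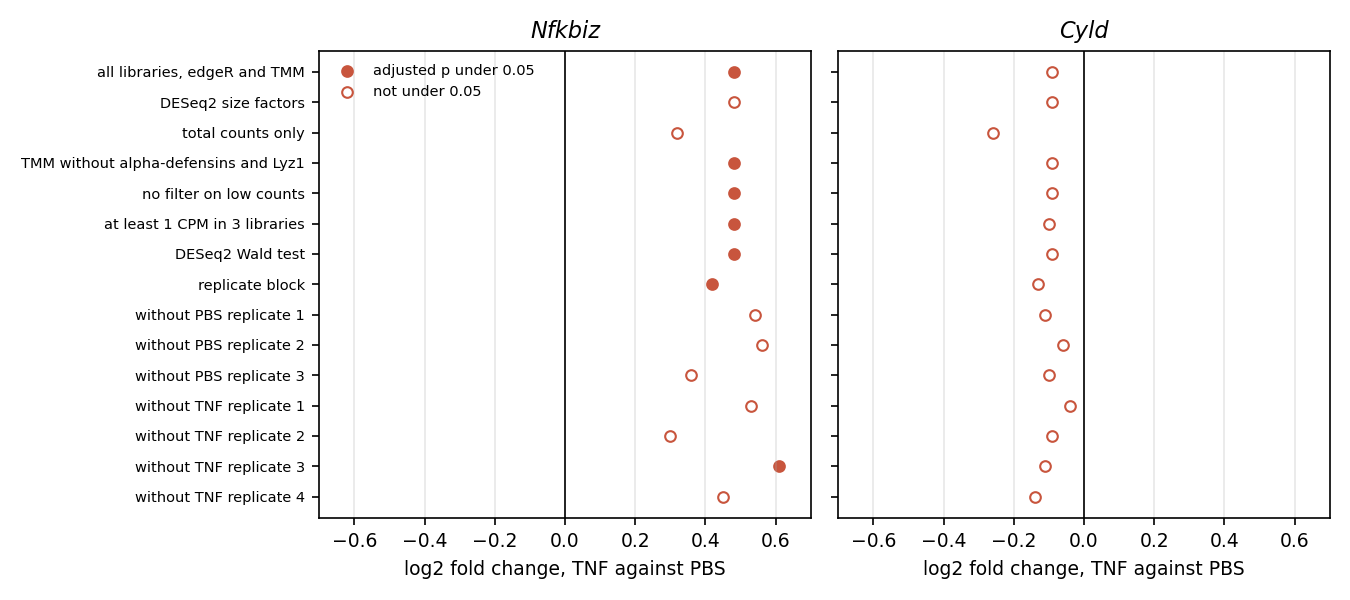
Log2 fold changes of Nfkbiz and Cyld between TNF and PBS (horizontal axes) are drawn for the analysis as reported and for each of its 14 alternatives (rows), with filled points where the adjusted p was under 0.05. Nfkbiz stayed to the right of 0 in every row with filled points in 7 of the 15 rows, and Cyld stayed to the left of 0 in every row without a filled point.

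The ubiquitin-editing enzymes differed from each other. Tnfaip3 (ENSMUSG00000019850, chromosome 10, 18874201 to 18891405) encodes A20, which removes and replaces ubiquitin chains on signalling proteins such as RIPK1. Its level was 14.7, 15.0 and 16.4 CPM after PBS and 324.5, 404, 339.5 and 325 CPM after TNF, and the spread within each group was small beside the gap between them. Its log2 fold change was 4.50 ± 0.13 (SE), or 22.6-fold, and its edgeR adjusted p of 3.65e-11 ranked 8 among the 14329 genes tested. Cyld (ENSMUSG00000036712, chromosome 8, 89423468 to 89478574), a deubiquitinase that cuts linear and lysine-linked chains, was at 63.0, 67.9 and 65.2 CPM after PBS and at 55.2, 61.5, 62.3 and 66.5 CPM after TNF. The groups overlapped, and the log2 fold change was -0.09 ± 0.10 (edgeR adjusted p = 0.454). The 95% interval of this fold ran from 0.809 to 1.09, below the fold of each of the other 9 members. Cyld was thus not called although its promoter holds one of the stricter kappaB matches shown above, while Nfkbib and Tnip2 rose without a match in their windows.

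The pair also changed order. Tnfaip3 held 24.5%, 23.5% and 25.9% of the length-scaled transcripts of Tnfaip3 and Cyld after PBS and 89.1%, 90.1%, 88.3% and 87.2% after TNF. The difference of 64.1 percentage points was the widest of the 4 shares computed (exact permutation p = 0.0286, adjusted over 4 shares 0.0286). Like the other shares, it rests on the same counts as the fold changes above, so its p is not separate support for them.

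The A20-binding proteins (ABINs) bind ubiquitin chains and bring A20 to its substrates. Tnip1 (ENSMUSG00000020400, chromosome 11, 54796320 to 54854661), which encodes ABIN-1, was at 30.4, 27.4 and 20.8 CPM after PBS and at 148, 139, 146 and 164.5 CPM after TNF. Its log2 fold change was 2.51 ± 0.14 (SE), with an edgeR adjusted p of 4.45e-09. Its exons share 2603 bases with Gpx3 on the opposite strand in GENCODE M39. Gpx3 had 28 counts in all PBS libraries together and 11 in all TNF libraries, far below the 1423 and 10268 counts of Tnip1. Tnip2 (ENSMUSG00000059866, chromosome 5, 34651772 to 34671388), which encodes ABIN-2, was at 8.15, 7.42 and 9.85 CPM after PBS and at 30.1, 34.5, 26.3 and 30.5 CPM after TNF. Its log2 fold change of 1.84 ± 0.15 (edgeR adjusted p = 2.46e-07) was the lowest among the 8 members whose groups did not overlap.

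Tnip3 (ENSMUSG00000044162, chromosome 6, 65502295 to 65611024), which encodes ABIN-3, went from the floor of detection to a level per length that overlapped that of Tnip2. It had 0, 1 and 0 counts in the PBS libraries and 1234, 778, 879 and 884 counts in the TNF libraries, or 69.0, 45.8, 47.0 and 57.8 CPM. The ratio of the groups was 3001 (95% exact binomial interval 538 to 118600, for counting error only), given as a description without a p. The single PBS count lay in replicate 2, and without that library Tnip3 was at least 641-fold higher, taken against a floor of 3 counts over the PBS group. Without PBS replicate 3, the ratio was 1966 (95% interval 353 to 77670). Among the transcripts of the 3 Tnip genes, scaled by length, Tnip3 held 0%, 0.108% and 0% after PBS and 23.1%, 16.5%, 17.7% and 18.8% after TNF, a difference of 19 percentage points. This share is given without its p, since Tnip3 was tested only because it was high after TNF. The mean share of Tnip1 was 58.2% after PBS and 56.0% after TNF, with overlapping ranges, whereas that of Tnip2 was 41.7% and 25%.

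**Figure D4:**
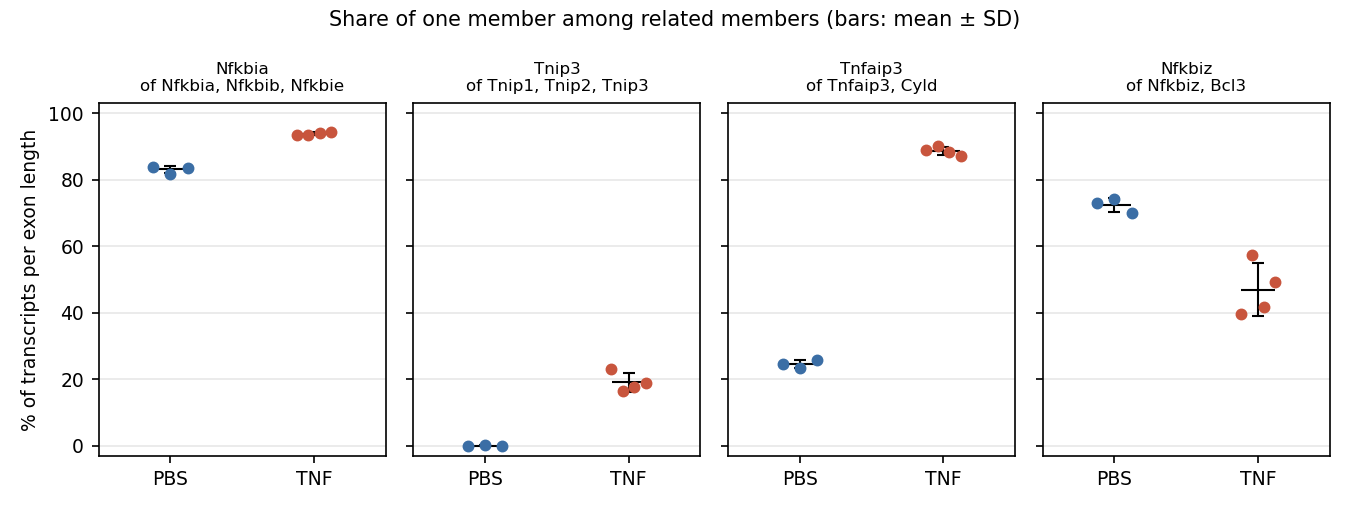
Each panel shows, in percent of exon-length-scaled transcripts, the share of 1 member among related members, with 1 point per library (3 PBS in blue, 4 TNF in red) and black bars for mean ± SD. In none of the 4 panels do the groups overlap, and the widest gap is that of Tnfaip3 against Cyld, with 24.6% ± 1.22 after PBS and 88.7% ± 1.24 after TNF.

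The order of the members by level was compared on CPM per kilobase of exon. After PBS the order was Nfkbia, Nfkbiz, Nfkbib, Cyld, Bcl3, Tnip1, Tnip2, Tnfaip3, Nfkbie and Tnip3, with means from 30.0 CPM per kilobase for Nfkbia to 0.00153 for Tnip3. The neighbours Tnip1 and Tnip2, and Tnip2 and Tnfaip3, overlapped over the PBS libraries. After TNF the order was Nfkbia, Tnfaip3, Nfkbib, Tnip1, Bcl3, Nfkbiz, Tnip2, Tnip3, Cyld and Nfkbie, with means from 412 to 3.12 CPM per kilobase. Here Tnip1 overlapped with Bcl3, Bcl3 with Nfkbiz, Tnip2 with Tnip3, and Tnip3 with Cyld. Tnfaip3 moved from place 8, at 1.58 ± 0.0949 (SD, n = 3), to place 2, at 35.9 ± 3.89 (SD, n = 4), and had the same places by the length of the canonical transcript, where it overlapped with Tnip1 after TNF. Cyld stood at place 4 after PBS (place 6 by canonical length) and at place 9 after TNF by both lengths.

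No single TNF library was the highest for all members. TNF replicate 2 was the highest of its group for 5 members (Nfkbib, Nfkbie, Nfkbiz, Tnfaip3 and Tnip2), TNF replicate 4 for 3 members (Nfkbia, Cyld and Tnip1) and TNF replicate 1 for 2 members (Bcl3 and Tnip3). For none of the 10 members did a TNF library stand apart from the other 3 by the Dixon ratio.

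The factors that the inhibitors restrain were examined next. All 5 NF-kB subunit genes were DEGs that rose, where 29.5% of all tested genes did, with a median log2 fold change of 1.90. Rel, which encodes c-Rel, rose most, with 7.32 ± 2.07 CPM after PBS (SD, n = 3) and 418 ± 41.2 CPM after TNF (SD, n = 4). Its log2 fold change was 5.83 ± 0.19 (SE), with an edgeR adjusted p of 8.91e-11. Rela, which encodes the p65 subunit bound by IkB-alpha, rose by 1.90 ± 0.12, Relb by 2.92 ± 0.13, Nfkb2 by 1.68 ± 0.12 and Nfkb1 by 1.39 ± 0.12 (edgeR adjusted p of at most 3.7e-07). Per length, the 3 classical IkB genes together had 1.52, 1.38 and 1.32 transcripts for each transcript of the 5 subunits after PBS and 2.5, 2.69, 3.06 and 3.29 after TNF. Nfkbia alone had 3.17, 2.83 and 3.28 for each transcript of Rela after PBS and 9.7, 10.3, 11.6 and 14.2 after TNF. In both ratios all TNF libraries lay above all PBS libraries, which was not tested further since the ratios rest on the same contrasts as the fold changes above.

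The machinery upstream of the inhibitors was examined by complex. Of 10 genes of the IKK complex and its upstream kinases, 7 rose and 1 fell, with a median log2 fold change of 0.48, where 29.5% of all tested genes rose and 30.1% fell. Tbk1 (1.54 ± 0.11), Ikbkb, which encodes the catalytic IKK-beta (1.38 ± 0.12), and Ikbke (1.29 ± 0.14) rose most, Tab1, which encodes an adaptor of the kinase TAK1, had a log2 fold change of -1.35 ± 0.15 (edgeR adjusted p = 4.18e-06), and Ikbkg, which encodes the scaffold NEMO, was not called (-0.04 ± 0.12, adjusted p = 0.776). Of 8 genes of the TNF receptor complex, 5 rose (median 0.90, beside 29.5% of all tested genes), led by Tnfrsf1b, which encodes a receptor of TNF (3.95 ± 0.13, edgeR adjusted p = 7.95e-11), and Birc3, which encodes the ubiquitin ligase cIAP2 (2.99 ± 0.11). In the linear ubiquitin machinery, 2 of 5 genes rose, Spata2, which links CYLD to the linear chain ligase (0.60 ± 0.12), and Rnf31, which encodes the ligase HOIP (0.42 ± 0.12). The median of that list was 0.20, and its count is near the 29.5% of all tested genes that rose.

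Of 6 partners of A20 and other ubiquitin-editing enzymes, 2 rose and 1 fell (median 0.07), near the 29.5% and 30.1% of all tested genes. Tax1bp1 and Rnf11, which encode partners of A20, rose by 0.52 ± 0.13 (SE, edgeR adjusted p = 0.00385) and 0.56 ± 0.12 (adjusted p = 0.00119). Usp21, which encodes a deubiquitinase, was lower at -0.60 ± 0.19 (adjusted p = 0.0149), with overlapping groups. Itch, which encodes a ubiquitin ligase that works with A20, was not called (-0.23 ± 0.10, adjusted p = 0.053). Of 9 further restraints on NF-kB, 6 rose, with a median of 0.87, beside 29.5% of all tested genes. Zc3h12a, which encodes the mRNA-cleaving Regnase-1, was at 30.2 ± 4.85 CPM after PBS and 190 ± 40.2 CPM after TNF and rose by 2.65 ± 0.18 (edgeR adjusted p = 6.81e-08), and N4bp1 (1.5 ± 0.10) and Tollip (1.43 ± 0.10) rose as well. Nfkbid, a further atypical IkB gene, rose by 1.72 ± 0.40 (adjusted p = 0.00197) from a low level of 1.504 ± 0.679 CPM to 5.002 ± 1.86 CPM. Nfkbil1 (0.25 ± 0.18, edgeR adjusted p = 0.232), Commd1 and Pdlim2 were not called.

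**Figure D5:**
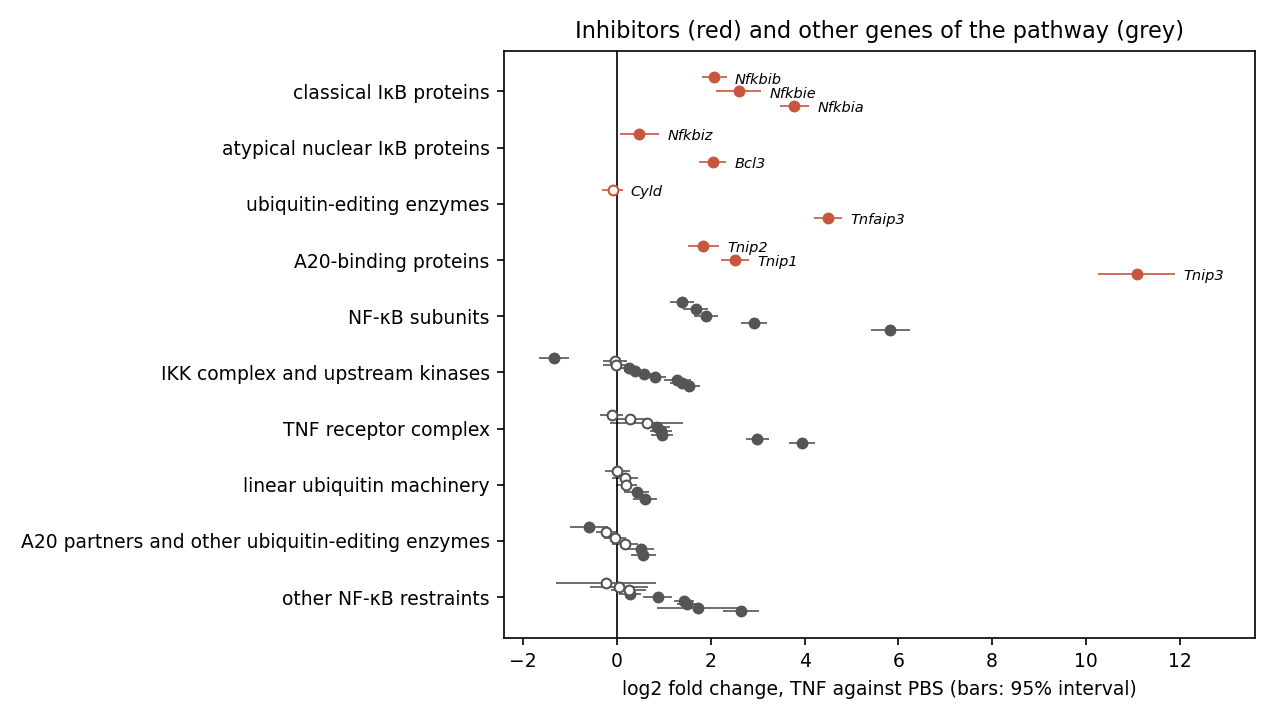
Log2 fold changes between TNF and PBS (horizontal axis) are shown with their 95% intervals for the 10 inhibitors (red, in 4 groups by role) and for the other genes of the pathway (grey, in 6 lists), with filled points for genes that were called at an adjusted p under 0.05. Tnip3 lies farthest to the right at 11.08, a fitted value that depends on the prior count added by edgeR, while Cyld is the only open red point.

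Of 12 other known targets of NF-kB that are not inhibitors, 10 passed the filter on low counts. The chemokine genes Cxcl1 and Cxcl2, with no counts after PBS, and Cxcl5, with 3, passed only through the TNF libraries. So did Icam1, which encodes an adhesion molecule, with 8, 10 and 16 counts after PBS, and Lcn2, with 1, 12 and 8. For this reason no count or median over the list is given. Il6 and Vcam1 were not tested, with 4 and 5 counts over the TNF libraries and none after PBS, and Ptgs2 was not called (-0.98 ± 0.89, edgeR adjusted p = 0.364). Sod2, which encodes the mitochondrial superoxide dismutase, rose by a log2 fold change of 0.93 ± 0.09 (edgeR adjusted p = 1.23e-06). Tnf itself rose from 1.48 ± 0.473 CPM to 93.0 ± 14.7 CPM (5.97 ± 0.21, adjusted p = 1.62e-10). The chemokine gene Ccl20 rose from 1.20 ± 0.297 CPM to 44.4 ± 13.8 CPM (5.21 ± 0.34, edgeR adjusted p = 1.64e-07).

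The genes whose profile over the 7 libraries was nearest to that of Nfkbia were Klf6, Tgfbr2 and Entpd3, with Euclidean distances of 0.293, 0.299 and 0.330 between log2(CPM + 0.5) values centred on the PBS mean. For Tnfaip3 the nearest were Mapk11, Cpne8 and Tlr2, with distances of 0.329, 0.369 and 0.461. The log2 fold changes of the first 3 were 3.68 ± 0.14, 3.87 ± 0.13 and 4.12 ± 0.15, and those of the latter 5.48 ± 0.23, 4.48 ± 0.14 and 4.72 ± 0.19 (SE). Protein-coding genes that averaged 10 CPM or more were compared. Mapk11, at 0.462 CPM after PBS and tested only through its TNF libraries, was near Tnfaip3 on this scale with its pseudocount of 0.5 although its fitted fold change was larger.

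Markers of the cell types that a sort could contain were set beside these results. Of 8 PC markers, 2 rose, 2 fell and 4 were not called, where 59.6% of all tested genes were called. Pla2g2a (log2 fold change 1.90 ± 0.23, SE) and Mmp7 (0.88 ± 0.21) rose, and Clps (-2.27 ± 0.43) and Habp2 (-1.26 ± 0.16) fell. Lyz1, which encodes lysozyme, was among those not called (96410 ± 17900 CPM after PBS, SD, n = 3, and 118600 ± 28050 CPM after TNF, SD, n = 4). The 18 leukocyte markers summed to 24.8 to 32.1 CPM in the PBS libraries and 19.6 to 29.7 CPM in the TNF libraries, and defining markers such as Cd3e, Ms4a1, Nkg7 and Tyrobp had no counts in any library. Ptprc, which encodes CD45, was lower, at a log2 fold change of -0.95 ± 0.33 (edgeR adjusted p = 0.027), with overlapping groups. It had 11.36, 26.19 and 11.55 CPM after PBS and 7.268, 6.241, 12.73 and 7.713 CPM after TNF. S100a9 had no counts after PBS and 5.91 ± 1.99 CPM after TNF. The 12 stromal and endothelial markers summed to 2.39 to 2.72 and 8.18 to 10 CPM, nearly all of it Vwf, and the 6 erythroid markers to at most 0.235 CPM. The leukocyte sum after TNF lay above the level of Nfkbie in every TNF library, reached the range of Tnip2 and lay below the other 8 inhibitors. These CPM values are not scaled by length, and a marker sum does not bound the inhibitor RNA that leukocytes could carry. The part of leukocytes in the levels of the inhibitors was not tested.

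Markers of other epithelial cells are given by their summed levels, since some of them, such as Apoa1, Apoa4 and Rbp2, passed the filter on low counts only through the PBS libraries. The sums were 645 to 785 and 89 to 115 CPM for enterocyte, 1320 to 2180 and 248 to 623 CPM for tuft cell, 2890 to 4040 and 1060 to 1690 CPM for stem cell and 11200 to 20500 and 9160 to 10500 CPM for goblet cell markers in the PBS and TNF libraries, with no overlap between the groups. Those of enteroendocrine cells overlapped, at 45.6 to 115 and 51.7 to 89.3 CPM. In that list, Tac1 had a mean of 1.71 CPM after PBS and 41.1 CPM after TNF. The means of Chga, Chgb, Neurod1, Cck, Sct and Gip were lower after TNF, and Pyy was barely detected in either group. The part of these shifts in the levels of the inhibitors was not tested.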

How the data were processed

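Bulk RNA-seq libraries of sorted PCs (3 PBS, 4 TNF; single-end reads, Element AVITI) were analysed from the table of raw counts per Ensembl gene that the authors deposited. The processing notes of the submitters name FastQC, Trimmomatic 0.39, STAR 2.7.10a, DESeq2 and the builds mm10 and mm39. How reads were counted, on which annotation and whether by strand is not given in the sources used here, and counts of genes that overlap on opposite strands are therefore uncertain. Symbols, positions and exon lengths came from GENCODE M39 (GRCm39), in which 98.8% of identifiers were found. Groups were taken from the sample titles, and all columns were matched by name.

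Counts were filtered with filterByExpr, scaled by TMM and tested over all 7 libraries without covariates with edgeR 4.0.16 (robust quasi-likelihood F test, two-sided) in R 4.3.3. DESeq2 1.42.0 was an alternative. The SE is the fitted log2 change divided by the root of its F. The script was tested on simulated data. No 2 libraries of a group agreed within sampling noise (lowest chi-square per degree of freedom 17). Depth was 15511455 to 19193721 counts, and intervals and floors cover counting error only. The members and lists were chosen with earlier results of these data known. All members and list genes could be named, plus the 3 nearest profiles of Nfkbia and Tnfaip3. Alternatives were other scalings and filters, DESeq2, a replicate block and leaving out each library. Canonical transcript lengths were added after seeing the data. Proteins were not analysed here.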

Additional observations from a re-analysis of the deposited data

Results flagged for a closer look

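For 66 values, each extreme TNF library was set against the other 3 by the Dixon ratio of gap to range, which passes its 95% limit by chance in about 1 of 20 groups. A library stood apart for 3 values, none of them a member. Tab2 (ratio 0.84) had 104 CPM in TNF replicate 2 and 115 to 117 CPM in the other TNF libraries. Usp21 (ratio 0.84) had 17.7 CPM in the same library and 10.5 to 11.6 CPM in the others. The summed erythroid markers (ratio 1.0) were at 0.235 CPM in TNF replicate 2 and at 0 in the others, a level of a few counts. The group of 3 PBS libraries was too small for this test.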

How the results depend on the processing

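Of 176 values with a test recomputed under alternatives, 140 kept their direction and their side of the threshold, and 36 kept the direction and lost the threshold. A further 70 were counts and medians, which have no test and are given below by their range. Of these 36, 8 were the values of Nfkbiz given above, and 28 were the shares without 1 library, where 15 or 20 splits cannot give a p below 0.0667 or 0.1. Leaving out 1 library, the differences ran from 10.2 to 11.2 percentage points for Nfkbia, 17.6 to 19.8 for Tnip3, 63.5 to 64.7 for Tnfaip3 and -29.0 to -23.0 for Nfkbiz. The number of members called higher was 8 or 9, and the median log2 fold change of all 10 members was 2.14 to 2.38. The number of genes called ran from 7131 to 9080. Scaling by total counts moved the median of all genes to -0.163 and gave 3147 genes called higher and 4614 called lower, in place of 4229 and 4314. Deviations of same-numbered libraries from their group means had correlations of -0.299, -0.0314 and -0.174, and those of other pairs ran from -0.205 to 0.35. With so few pairs, and deviations centred within each group, this cannot decide whether same-numbered libraries were handled together. With the replicate block, 9 members were called, the median of all 10 was 2.27, Nfkbiz had a log2 fold change of 0.42, and 7131 genes were called in place of 8543.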
